A study of Mus musculus with 21 samples.

Results

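The 8 genes described here, Tcp1, Cct2, Cct3, Cct4, Cct5, Cct6a, Cct7 and Cct8, encode the subunits of TRiC, the chaperonin of the cytosol. They were taken as the genes annotated to these symbols among the probe sets with 1 gene on the Affymetrix U74Av2 mouse array, and they are 8 of the 8251 genes measured. They were read by 13 of the 12488 probe sets of the array: 3 for Cct3, 2 each for Tcp1, Cct5 and Cct6a, and 1 each for Cct2, Cct4, Cct7 and Cct8. A gene with several probe sets is given by the one with the highest mean, no subunit was lost to a filter on low values, and the remaining probe sets are described further on. All values are log2 values made by the submitters with RMA, so a difference of 1 is a change by a factor of 2. Levels of different subunits are not compared, because each probe set has its own brightness.

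RNA came from B16-F10, a mouse melanoma line of C57BL/6J origin, grown in RPMI medium with serum and hybridised to 21 arrays. Hypoxia meant 24 h at 1% oxygen, and the controls of every set were grown at 21% oxygen. In the chamber set, 3 hypoxia arrays of cells kept in a Billups-Rothenberg chamber, a sealed box, were set against 2 controls. Experiments 1 and 2, in a flow-regulated incubator, had 3 hypoxia arrays against 2 controls each. Experiment 3 had 2 controls, 2 arrays after 24 h with 100 µM cobalt chloride (CoCl2) and 2 after 24 h with 200 µM. CoCl2 is used as a chemical mimic of hypoxia, since cobalt blocks the enzymes that mark the hypoxia-inducible factors for destruction. No title of a chamber array names an experiment number, and the 2 controls without such a number were therefore taken as the chamber controls. The labels call the arrays of a group biological replicates without saying that each came from its own culture, so the p-values describe the spread between arrays only. All groups come from 1 cell line, which limits them as a model of melanoma.

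TRiC is built of stacked rings, each with the 8 different subunits in a fixed order around a central cavity. Unfolded proteins enter the open cavity, ATP binding closes a lid made by the subunits themselves, and the protein folds inside. Actin and tubulin are its best known clients, prefoldin hands them over, and the von Hippel-Lindau protein, which marks the hypoxia-inducible factors for destruction, also needs TRiC to fold. Work on the yeast and mammalian complexes placed the subunits that bind ATP tightly, Tcp1, Cct2, Cct4 and Cct5, on one side of the ring and the subunits that bind it weakly, Cct3, Cct6a, Cct7 and Cct8, on the opposite side. The subunits are described below in these 2 groups.

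Hypoxia target genes were higher in each of the 5 treated groups than in the controls of the same set: Vegfa, the vascular endothelial growth factor gene, by 1.78 (chamber), 3.11 (experiment 1), 2.66 (experiment 2), 2.11 (100 µM CoCl2) and 2.88 (200 µM) log2 units. All 7 measured melanocyte markers lay above the array median, against 1 of 7 leukocyte, 3 of 7 fibroblast, 1 of 5 endothelial and 1 of 6 epithelial markers. As a measure of RNA quality, the Actb control probe set at the 3′ end was set against that at the 5′ end, a log2 difference that is larger in RNA that is broken down or copied only in part. It lay between 0.15 and 0.50 on 15 arrays, all those of the hypoxia sets. In experiment 3 the controls had 1.41 and 1.62, the 100 µM arrays 2.36 and 2.16 and the 200 µM arrays 1.47 and 0.50.

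The stretches before the subunits' start sites are shown because most of the subunits moved together at 100 µM CoCl2 and in the chamber while Tcp1 and Cct2 did not. RefSeq promoter windows of 300 bases (250 before and 50 after each gene start, build GRCm38.p6) were at hand for 7 of the 8 subunits, with 2 windows each for Cct2 and Cct5, and Cct4 was not among them. The 150 bases before the start are printed for Cct3, Cct7, Cct8, Cct5 and Tcp1, and 30 bases (from 53 to 24 before the start) for Cct2. Capitals mark CCAAT, or its reverse complement ATTGG, in Cct3, Cct7 and Tcp1, and a pair of heat shock units in Cct5 and Cct2. Of the 2 windows each of Cct5 and Cct2, the one with the pair is printed. Cct6a, whose window held both kinds of match, is not printed.
Cct3 (chr3:88296985-88297134, plus strand): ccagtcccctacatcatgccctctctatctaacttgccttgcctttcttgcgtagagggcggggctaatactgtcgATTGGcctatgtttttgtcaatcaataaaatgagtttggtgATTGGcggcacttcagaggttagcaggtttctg
Cct7 (chr6:85451355-85451504, plus strand): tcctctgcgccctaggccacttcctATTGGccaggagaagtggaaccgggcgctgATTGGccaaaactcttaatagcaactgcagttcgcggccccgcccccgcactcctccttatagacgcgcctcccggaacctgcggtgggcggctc
Cct8 (chr16:87495870-87496019, minus strand): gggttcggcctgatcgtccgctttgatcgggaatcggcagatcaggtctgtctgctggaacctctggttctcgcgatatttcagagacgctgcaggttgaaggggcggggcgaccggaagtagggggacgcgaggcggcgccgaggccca
Cct5 (chr15:31601847-31601996, minus strand): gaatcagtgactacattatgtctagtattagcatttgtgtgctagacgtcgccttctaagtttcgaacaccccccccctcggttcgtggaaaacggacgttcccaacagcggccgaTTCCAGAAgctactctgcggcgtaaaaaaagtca
Tcp1 (chr17:12916179-12916328, plus strand): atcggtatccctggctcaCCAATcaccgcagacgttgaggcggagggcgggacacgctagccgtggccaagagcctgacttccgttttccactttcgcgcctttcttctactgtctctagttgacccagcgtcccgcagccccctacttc
Cct2 (chr10:117063399-117063428, minus strand): ccccaagtgaaGAAGTTTCtagcaggacct
Each window was searched on both strands for 4 motifs. CCAAT was found in 1 window each of Tcp1, Cct3, Cct6a and Cct7, 4 of the 9 windows, against 37.4% of all 32851 windows in the table. A heat shock pair, written GAANNTTC or TTCNNGAA, was found in 1 window each of Cct2, Cct5 and Cct6a, 3 of the 9, against 15.1% of all windows. The E-box CACGTG, which holds the letters of the next motif, and ACGTG, the core of the hypoxia response element with A as its first base, were in none of the 9, against 7.15% and 19.6%. The window of Cct8, the subunit with the widest span of group means, held none of the 4. These are matches of letters, not sites shown to be bound.

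In the chamber, 6 of the 8 subunits fell under hypoxia and the remaining pair, Tcp1 and Cct2, had differences of 0.00. The 6 were Cct3, Cct4, Cct5, Cct6a, Cct7 and Cct8, with differences between -0.29 and -0.86 log2 units. Of all 8251 genes, 15.1% were called lower in this comparison (limma, Benjamini-Hochberg adjusted p under 0.05 over all genes, the threshold for a call throughout). The median difference over the 8 subunits was -0.41, against 0.07 over all genes. In bulk RNA, fewer cells with a transcript and less transcript per cell cannot be told apart.

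Among the subunits of the weakly binding side, Cct3 read 8.34, 8.18 and 8.31 on the 3 chamber hypoxia arrays and 9.14 and 9.14 on the controls. Every hypoxia array lay below both controls, and the difference of -0.86 ± 0.16 (SE; adjusted p = 3e-04) made Cct3 transcript 1.82-fold lower. Cct7 read 10.60, 10.75 and 10.66 under chamber hypoxia and 11.10 and 11.19 in the controls (-0.47 ± 0.14, adjusted p = 0.015). Cct8 read 7.54, 7.56 and 7.72 under chamber hypoxia and 8.01 and 7.99 in the controls (-0.39 ± 0.14, adjusted p = 0.0469). Neither of these had overlapping groups, and Cct6a, whose representing probe set matches a sequence family, did not overlap either. How many of all genes had groups without overlap was not counted, in this set or the others. Cct6a read 7.55, 7.64 and 7.62 under chamber hypoxia and 7.93 and 7.86 in the controls (-0.29 ± 0.10, adjusted p = 0.042).

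Of the tightly binding side, Cct5 read 9.64, 9.65 and 9.65 under chamber hypoxia and 10.19 and 10.08 in the controls. The 3 hypoxia arrays read almost alike, and the difference was -0.49 ± 0.11 (adjusted p = 0.002, 1.4-fold lower). Cct4 read 9.64, 9.59 and 9.81 under chamber hypoxia and 10.16 and 10.08 in the controls (-0.44 ± 0.13, adjusted p = 0.02). Tcp1, the subunit first found through the mouse t-complex, read 7.07, 7.08 and 7.13 under chamber hypoxia and 7.12 and 7.07 in the controls. Its groups overlapped, with a difference of 0.00 and a 95% interval from -0.22 to 0.22. Cct2 read 6.86, 6.88 and 6.99 under chamber hypoxia and 6.97 and 6.85 in the controls, with a difference of 0.00 and an interval from -0.29 to 0.30. The calls of Cct3 and Cct5 were the only ones left when chamber control 1, chamber control 2 or hypoxia array 1 was left out, and without hypoxia array 2 Cct3, Cct5 and Cct7 were left. Without hypoxia array 3 only Cct6a lost its call. With quantile normalisation of the deposited values 3 subunits were called, Cct3, Cct5 and Cct7.

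**Figure D1:**
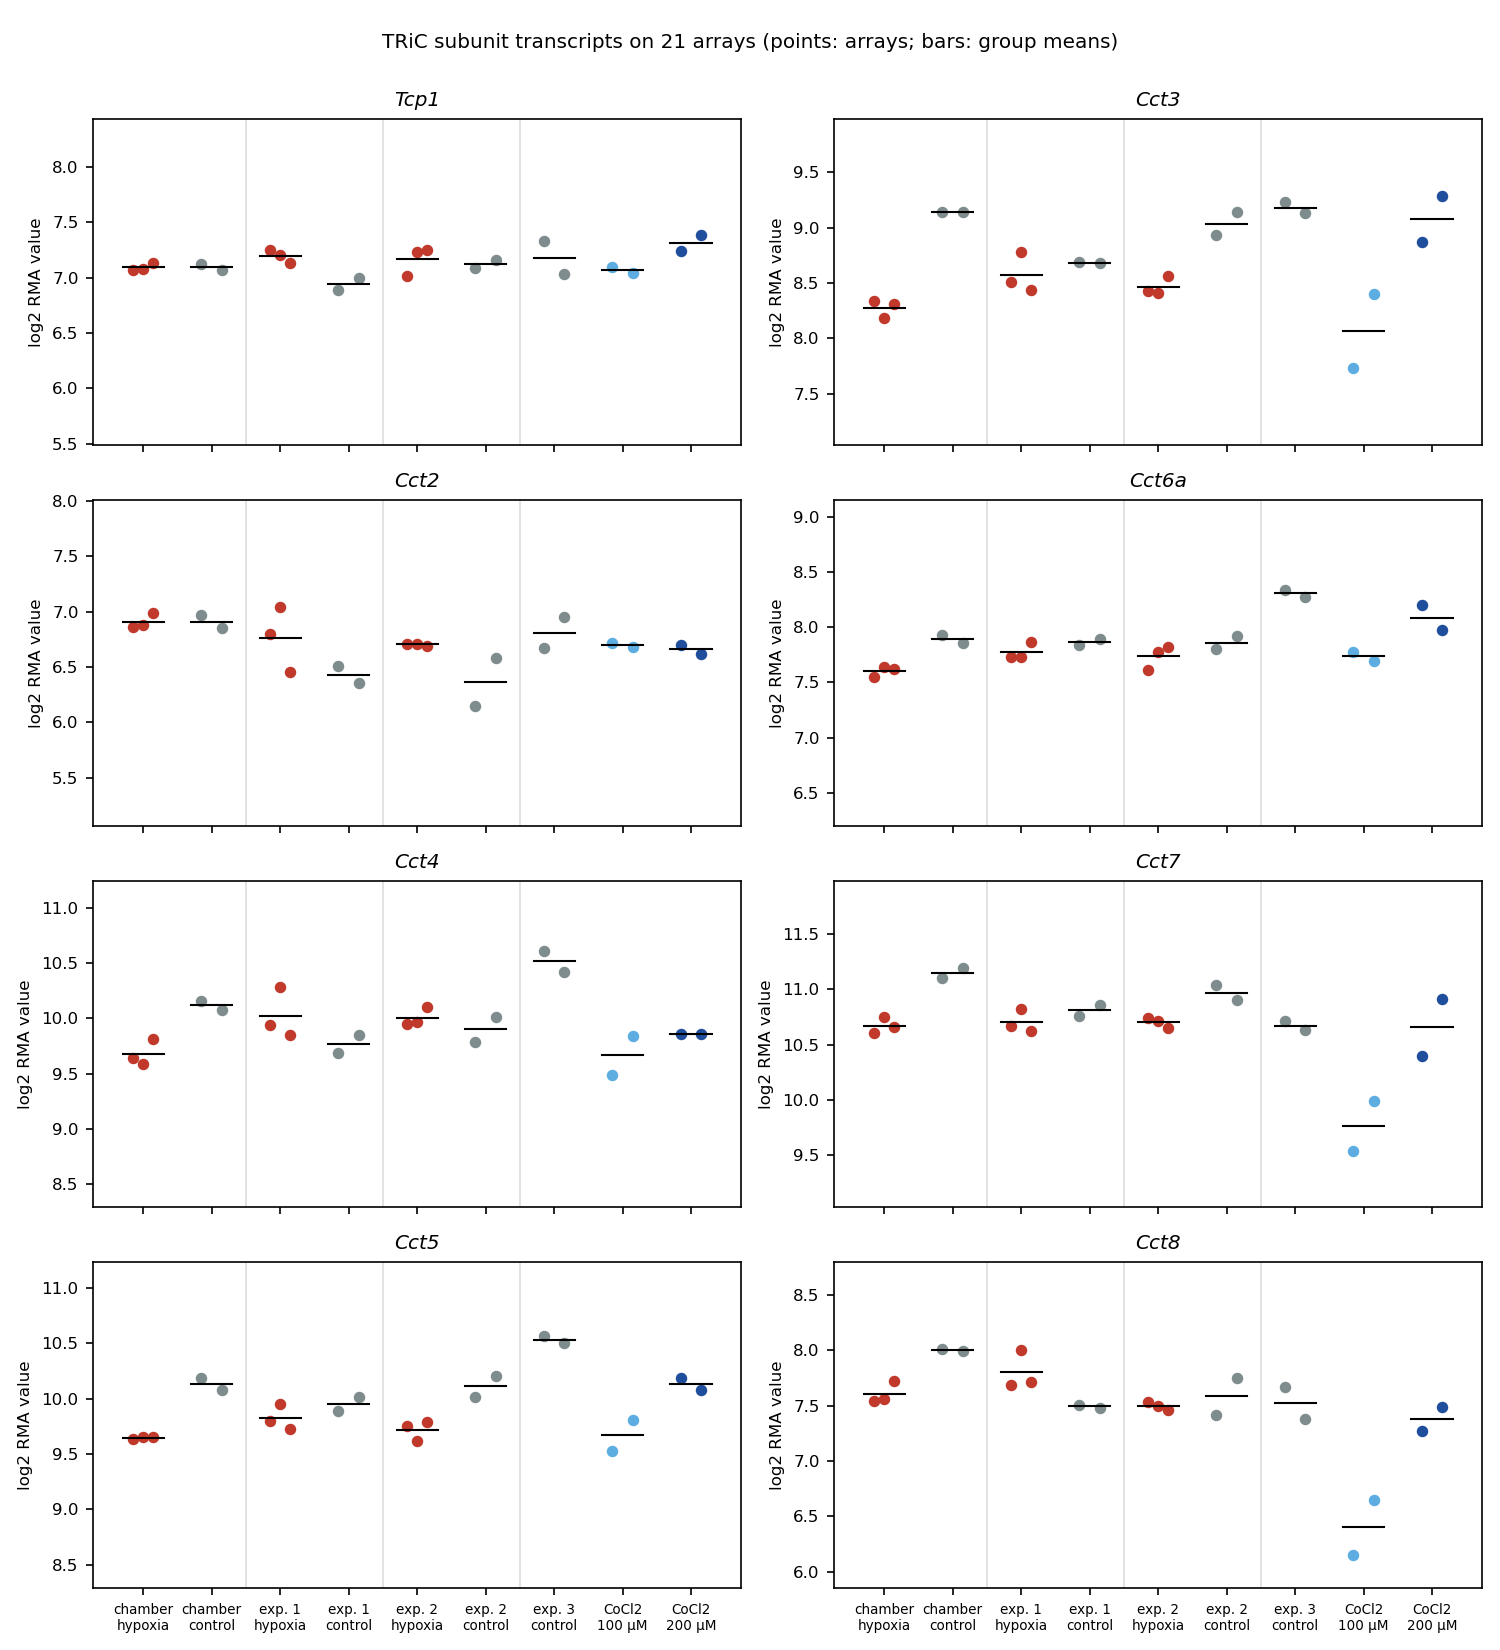
Log2 RMA value (vertical axis) of the representing probe set of each subunit on the 21 arrays, by group (horizontal axis). Points are arrays and bars are group means, and each panel spans the same number of log2 units. The 3 chamber hypoxia points lie below both chamber controls for Cct3 (8.18 to 8.34, against 9.14), Cct4, Cct5, Cct6a, Cct7 and Cct8, and the 100 µM CoCl2 points of the same 6 subunits lie below both controls of experiment 3. How many of all genes lay likewise apart from their controls was not counted.

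In experiment 1, with the same oxygen level in the incubator, no subunit was called in either direction (limma), while 18.3% of all genes were. At an unadjusted p under 0.05 there were 3, all with higher values under hypoxia: Tcp1 (0.25 ± 0.11), Cct2 (0.33 ± 0.14) and Cct8 (0.31 ± 0.14), with adjusted p = 0.11, 0.13 and 0.15. Tcp1 read 7.25, 7.21 and 7.13 in experiment 1 hypoxia, above both controls at 6.89 and 7.0. Cct8 read 7.69, 8.00 and 7.71 in experiment 1 hypoxia, likewise above both controls at 7.51 and 7.48. Cct3, the subunit lowest under chamber hypoxia relative to its controls, overlapped here, with 8.51, 8.78 and 8.44 under experiment 1 hypoxia and 8.69 and 8.68 in the controls. Its difference was -0.10 ± 0.16, with an interval from -0.43 to 0.22. The median over the 8 subunits was 0.08, against -0.03 over all genes. Without hypoxia array 3, Cct2 was called higher.

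In experiment 2, Cct3 and Cct5 fell, 2 of the 8 subunits, where 7.79% of all genes were called lower. Cct3 read 8.43, 8.41 and 8.56 in experiment 2 hypoxia and 8.93 and 9.14 in the controls (-0.57 ± 0.16, adjusted p = 0.014, 1.48-fold lower). Cct5 read 9.75, 9.62 and 9.79 in experiment 2 hypoxia and 10.02 and 10.21 in the controls (-0.39 ± 0.11, adjusted p = 0.014). For both, every hypoxia array lay below both controls. Cct7 also lay wholly below, with 10.74, 10.71 and 10.65 in experiment 2 hypoxia and 11.04 and 10.90 in the controls, and missed the threshold (-0.27 ± 0.14, adjusted p = 0.22). Cct2 lay wholly above, with 6.71, 6.71 and 6.69 in experiment 2 hypoxia and 6.15 and 6.58 in the controls (0.34 ± 0.14, adjusted p = 0.13). The median over the 8 subunits was -0.11, against -0.03 over all genes. Cct5 was no longer called without hypoxia array 2, and without control 2 neither Cct3 nor Cct5 was, while Cct2 was called higher.

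Averaged over the 3 hypoxia sets with equal weight, 4 subunits were lower and 1 was higher. Cct3 fell by 0.51 ± 0.09 (adjusted p = 9.9e-05), Cct5 by 0.34 ± 0.06 (0.00018), Cct7 by 0.28 ± 0.08 (0.0075) and Cct6a by 0.17 ± 0.06 (0.032). The value of Cct6a comes from its family set: with the mean of its probe sets it was -0.04 (adjusted p = 0.65), and its call was also lost with quantile normalisation (-0.13, adjusted p = 0.17). Cct2 rose by 0.22 ± 0.08 (adjusted p = 0.043), where its 3 differences were 0.00, 0.33 and 0.34. Of all genes 19.5% were called lower and 12.6% higher. Cct4 averaged -0.03 and Cct8 -0.06, each with a negative difference in the chamber and a positive one in experiment 1. Tcp1 averaged 0.10 (interval -0.03 to 0.22). Cct3, Cct5 and Cct7 had a negative difference in all 3 sets, as did Cct6a. The calls of Cct3, Cct5 and Cct7 held with any 1 array left out. That of Cct6a was lost in 8 of the 15 such fits and that of Cct2 in 12, and both were lost without chamber control 1 or 2, chamber hypoxia 1, experiment 1 control 2, experiment 1 hypoxia 1 or experiment 2 hypoxia 1.

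**Figure D2:**
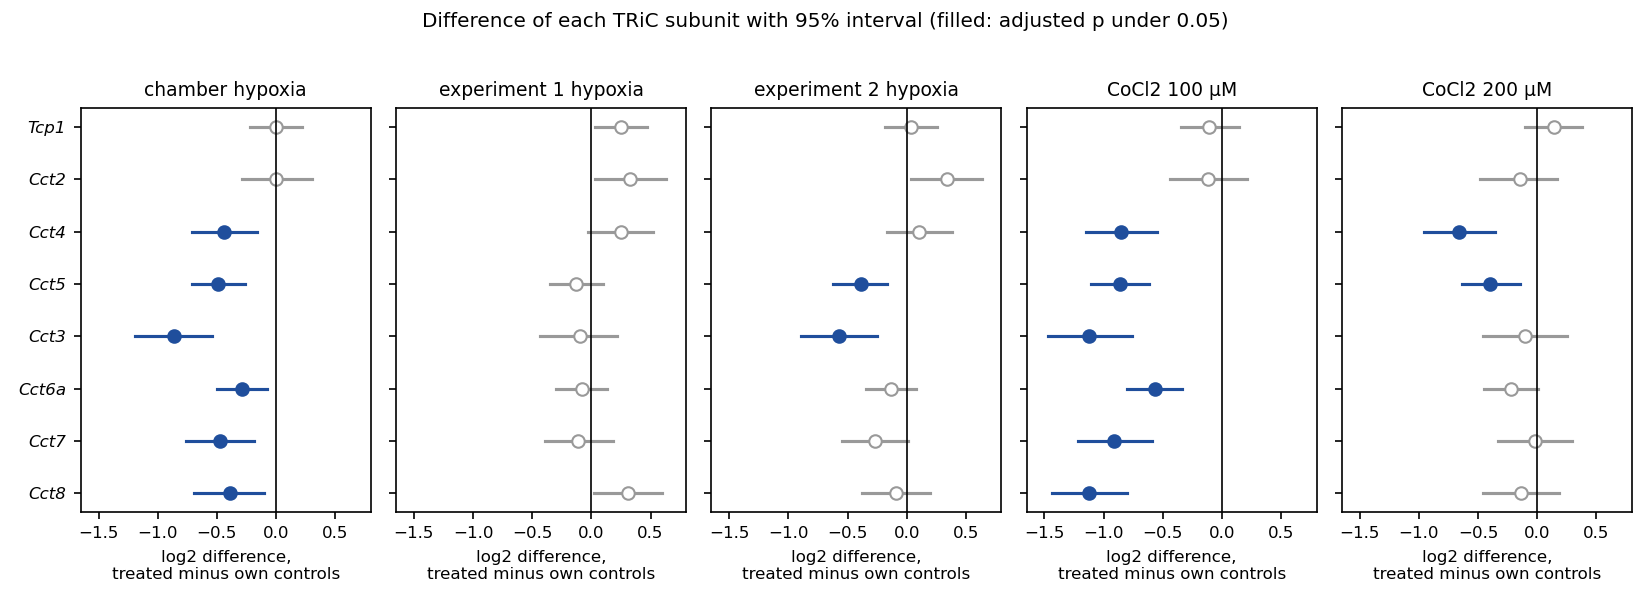
Log2 difference of each subunit, treated minus the controls of its own set (horizontal axis), with its 95% interval, in the 5 comparisons with controls. Filled points passed the adjusted p threshold. The 6 filled points under chamber hypoxia and at 100 µM CoCl2 belong to the same subunits, none is filled in experiment 1, and Tcp1 and Cct2 are open in all 5 panels.

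Whether the sets differed was tested directly as a difference of differences. Between the chamber and the mean of both incubator experiments no subunit passed (limma), with 2.16% of all genes called in either direction. At an unadjusted p under 0.05 there were 3, Cct4 (-0.61 ± 0.16, adjusted p = 0.0503), Cct8 (-0.50 ± 0.17, adjusted p = 0.12) and Cct3 (-0.53 ± 0.19, adjusted p = 0.14). A comparison of the chamber with experiment 1 alone, added after the values were seen, called Cct4 (-0.68 ± 0.19, adjusted p = 0.041) and Cct8 (-0.70 ± 0.20, adjusted p = 0.0495), where 2.91% of all genes were called lower. The largest difference there was that of Cct3, -0.76 ± 0.22, which missed the threshold (adjusted p = 0.056) and was called in 5 of 20 alternative fits. At an unadjusted p under 0.05 there were 4 subunits. The calls of Cct4 and Cct8 were both lost with quantile normalisation. With 1 of the 10 arrays left out, both remained in 1 fit (without experiment 1 hypoxia 1), Cct4 alone in 2 (without chamber hypoxia 3 or experiment 1 hypoxia 3) and neither in the other 7. The same comparison with experiment 2 called none (limma), with 0.0848% of all genes called and 1 subunit, Cct4, at an unadjusted p under 0.05. Between experiments 1 and 2, which used the same kind of device, none was called (limma), with 0.327% of all genes called and only Cct3 at an unadjusted p under 0.05 (0.47 ± 0.22, adjusted p = 0.56). Only the chamber set used the chamber, and device and set cannot be told apart.

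The controls of the sets were not at one level. The mean of Cct8 was 8.00 in the chamber controls, 7.49 in those of experiment 1, 7.59 in those of experiment 2 and 7.52 in those of experiment 3. The spread of the 4 control means was 0.23 log2 units for Tcp1 and 0.44 to 0.75 for the remaining 7 subunits, and it was widest for Cct4. The chamber controls had the highest control mean for Cct2, Cct7 and Cct8, and the controls of experiment 3 for the remaining 5. Experiment 1 had the lowest control mean for 6 of the 8 subunits, all but Cct2 and Cct7. The chamber hypoxia arrays of Cct8 (7.54, 7.56 and 7.72) thus lay above both experiment 1 controls (7.51 and 7.48), although they lay below their own. The part of these control levels in the differences between sets was not tested.

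At 100 µM CoCl2, the same 6 subunits as in the chamber fell: Cct3 and Cct8 by 1.12, Cct7 by 0.91, Cct5 by 0.86, Cct4 by 0.85 and Cct6a by 0.57 log2 units. Of all genes 20.7% were called lower. The median over the 8 subunits was -0.86, against 0.10 over all genes. Whether these falls differed from those in the chamber was not tested. Tcp1 (-0.11 ± 0.12, interval -0.35 to 0.14) and Cct2 (-0.12 ± 0.16, interval -0.44 to 0.21) were again not called.

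On the weakly binding side, Cct8 read 6.15 and 6.65 at 100 µM and 7.67 and 7.38 in the controls of experiment 3 (-1.12 ± 0.15, adjusted p = 6e-06, 2.18-fold lower). Cct3 read 7.73 and 8.40 at 100 µM and 9.23 and 9.13 in the controls (-1.12 ± 0.17, adjusted p = 2.4e-05, 2.17-fold lower). Cct7 read 9.54 and 9.99 at 100 µM and 10.71 and 10.63 in the controls (-0.91 ± 0.15, adjusted p = 6.1e-05). In all of these both treated arrays lay below both controls, and array 1 was the lower of the pair. Cct6a read 7.78 and 7.69 at 100 µM and 8.34 and 8.27 in the controls (-0.57 ± 0.11, adjusted p = 0.00038). On the tightly binding side, Cct5 read 9.53 and 9.81 at 100 µM and 10.57 and 10.50 in the controls (-0.86 ± 0.12, adjusted p = 6e-06). Cct4 read 9.49 and 9.84 at 100 µM and 10.61 and 10.42 in the controls (-0.85 ± 0.14, adjusted p = 8e-05). Both were clear of their controls, and all 6 subunits were called when any 1 of the 4 arrays was left out. With the mean of its probe sets, Cct6a was not called (-0.07, adjusted p = 0.58).

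The 100 µM arrays also had the highest Actb 3′ minus 5′ values of the series, 2.36 on array 1 and 2.16 on array 2, against 1.41 and 1.62 in the controls. Array 1, with the higher value, had the lower reading for 5 of the 6 subunits, Cct6a being the exception. The same measure from Gapdh ran the other way between these arrays, at 1.44 on array 1 and 2.18 on array 2, against 2.21 and 0.92 in the controls. At 200 µM it was 0.45 and 0.12. With the Actb value as a covariate the same 6 were still called, at -0.55 to -0.89 log2 units. The largest shifts were those of Cct3, at -0.73 (adjusted p = 0.015), and Cct7, at -0.55 (adjusted p = 0.032). Here and below, the covariate is fitted from differences between arrays of the same group. These were widest in the 200 µM pair, with Actb values of 1.47 and 0.50. The mean of the melanocyte markers was also lower with CoCl2, at 9.33 and 9.52 in the controls, 7.78 and 8.03 at 100 µM and 6.57 and 6.74 at 200 µM. The leukocyte marker mean lay at 4.16 and 4.21 in the controls, 4.69 and 4.77 at 100 µM and 5.0 on both arrays at 200 µM. The part of these marker levels in the subunits' differences was not tested.

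**Figure D3:**
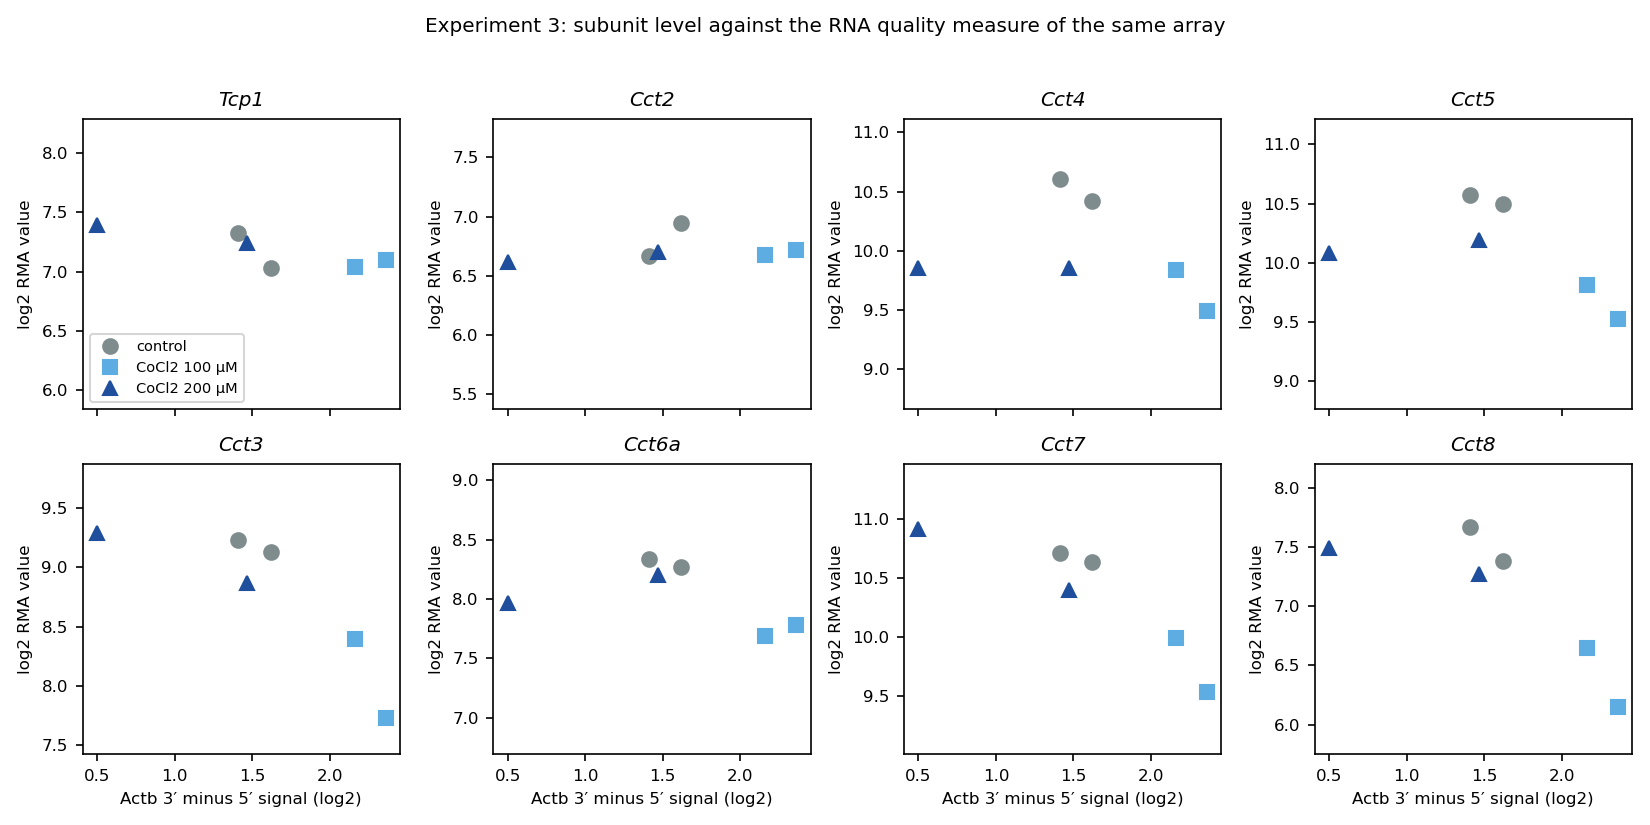
Log2 RMA value of each subunit (vertical axis) against the Actb 3′ minus 5′ signal of the same array in log2 units (horizontal axis), for the 6 arrays of experiment 3: 2 controls (circles), 2 at 100 µM (squares) and 2 at 200 µM (triangles). The 100 µM arrays lie farthest right, at 2.16 and 2.36, and lowest in the panels of 6 subunits. The Cct4 values at 200 µM, both 9.86, lie below the controls, with Actb values of 1.47 and 0.50 against 1.41 and 1.62.

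At 200 µM, Cct4 and Cct5 fell, 2 of the 8 subunits, a share close to the 22.3% of all genes called lower. Cct4 read 9.86 and 9.86 at 200 µM, against 10.61 and 10.42 in the controls (-0.66 ± 0.14, adjusted p = 0.00091, 1.58-fold lower). Cct5 read 10.19 and 10.08 at 200 µM, against 10.57 and 10.50 in the controls (-0.40 ± 0.12, adjusted p = 0.01). Both belong to the tightly binding side, and both stayed called with the Actb covariate, at -0.73 and -0.38. A second probe set of Cct5 gave only -0.17 ± 0.13 there (adjusted p = 0.31), and its treated and control arrays overlapped. Cct6a lay below its controls as well, at 8.20 and 7.97 with 200 µM against 8.34 and 8.27, and missed the threshold (-0.22 ± 0.11, adjusted p = 0.12). The remaining 3 of the weakly binding side had small differences: -0.10 for Cct3 (interval -0.46 to 0.25), -0.02 for Cct7 (-0.33 to 0.29) and -0.14 for Cct8 (-0.46 to 0.18). Tcp1 was at 0.14 (-0.10 to 0.38) and Cct2 at -0.15 (-0.48 to 0.17). The median over the 8 was -0.15, against 0.11 over all genes. Cct5 was not called without control 1 or without the second 200 µM array, or with the 6 arrays of experiment 3 alone, and Cct6a was called without the first 200 µM array.

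Set against 100 µM, 5 subunits were higher at 200 µM: Cct3 by 1.02 ± 0.17 (adjusted p = 0.00028), Cct8 by 0.98 ± 0.15 (0.00014), Cct7 by 0.89 ± 0.15 (0.00029), Cct5 by 0.47 ± 0.12 (0.0083) and Cct6a by 0.35 ± 0.11 (0.033). Of all genes 7.83% were called higher in this comparison. Cct3 read 8.87 and 9.29 at 200 µM and 7.73 and 8.40 at 100 µM, and Cct8 read 7.27 and 7.49 at 200 µM and 6.15 and 6.65 at 100 µM. Cct4 did not pass, with a step of 0.20 ± 0.14 (interval -0.10 to 0.50). The Actb value moved with the dose groups, at 1.47 and 0.50 with 200 µM against 2.36 and 2.16 with 100 µM. With it as a covariate none of the 5 steps was called (limma, adjusted p between 0.25 and 0.66), and the values were 0.35 for Cct3, 0.57 for Cct8, 0.28 for Cct7, 0.51 for Cct5 and 0.52 for Cct6a. With the 6 arrays of experiment 3 alone none was called either. The call of Cct5 was also lost without 100 µM array 1, and that of Cct6a without 100 µM array 2 or 200 µM array 1.

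CoCl2, taken as the mean of both doses, and hypoxia, taken as the mean of the 3 sets, differed for Cct4 (-0.73 ± 0.15, adjusted p = 8e-04) and Cct8 (-0.58 ± 0.16, adjusted p = 0.009), both lower with CoCl2, where 16% of all genes were called lower. For Cct4 the single differences were -0.85 at 100 µM and -0.66 at 200 µM, and -0.44 (chamber), 0.25 (experiment 1) and 0.10 (experiment 2) under hypoxia. Cct4 at 200 µM was thus below its controls with an interval from -0.96 to -0.36, while in both incubator experiments the point estimate was above 0. For Cct8 the difference from hypoxia rested on 100 µM, since 200 µM gave -0.14. Without control 1 of experiment 3, Cct4 was called and Cct8 was not. A call was gained by Cct5 without 100 µM array 2, and by Cct2 without experiment 1 hypoxia 3 or experiment 2 control 2. The doses of CoCl2 and the oxygen level are different exposures, and the 2 kinds of treatment lay in different sets.

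By their representing probe sets, Cct4 and Cct5 of the tightly binding side were among the subunits called in the chamber and at both CoCl2 doses. Tcp1 and Cct2 were called in none of the 5 comparisons with controls. With the mean of its probe sets, however, Tcp1 was called higher at 200 µM (0.43, adjusted p = 0.014). By their representing probe sets, all 4 of the weakly binding side were called in the chamber and at 100 µM. None of them was called in experiment 1 or at 200 µM, and Cct3 alone in experiment 2. With the mean of its probe sets, Cct6a was called neither in the chamber (-0.14, adjusted p = 0.28) nor at 100 µM (-0.07, adjusted p = 0.58). The widest span over the 9 group means was that of Cct8, from 6.40 at 100 µM to 8.00 in the chamber controls (1.60 log2 units), then Cct7 (1.37) and Cct3 (1.12). Tcp1 had the narrowest, 0.37, from 6.95 in the controls of experiment 1 to 7.32 at 200 µM. At 100 µM the group mean was the lowest of the 9 for Cct3, Cct4, Cct7 and Cct8, and for Cct5 and Cct6a it was second to chamber hypoxia. For Cct4 (9.66 at 100 µM, 9.68 in chamber hypoxia) and Cct5 (9.67 and 9.65) the lowest pair of means lay closer to each other than the 2 arrays at 100 µM did.

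The subunits' deviations from their own controls ran together over the 13 treated arrays. The mean over the 8 subunits was -0.40, -0.39 and -0.32 on the chamber hypoxia arrays, 0.05, 0.23 and -0.02 in experiment 1 hypoxia, -0.15, -0.13 and -0.08 in experiment 2 hypoxia, -0.84 and -0.58 at 100 µM and -0.25 and -0.14 at 200 µM. Cct8 (r = 0.98) and Cct5 (0.95) followed the mean of the other 7 most closely, and Cct2 (0.64) least. Pairs ranged from r = 0.35 (Cct2 with Cct3, and Cct2 with Cct7) to 0.96 (Cct5 with Cct8). These 13 points share arrays, controls and RNA quality, so the correlations are descriptions only. Over the same arrays, the genes of 5368 compared whose pattern was most like the mean of the subunits were Zc3h15 (r = 0.982), Phb2 (0.97), Ptdss1 (0.969), Caprin1 (0.967), Uqcrb (0.964), Gnl3 (0.956), Rnaseh2b (0.954) and Dcun1d5 (0.952). Phb2 encodes a prohibitin of the mitochondrial inner membrane, with differences of -0.85 in the chamber, -0.01 in experiment 1, -0.40 in experiment 2, -1.48 at 100 µM and -0.40 at 200 µM. Gnl3, which encodes the nucleolar GTPase nucleostemin, had -0.71, 0.38, -0.03, -1.14 and -0.02 in the same order. The least alike were Entpd7 (r = -0.959), Tmem141 (-0.948), Rai1 (-0.944) and Slc22a18 (-0.941).

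Other probe sets of 4 subunits gave the same comparisons a second reading, with p-values adjusted over all single-gene probe sets. For Cct3, a second set gave -1.08 ± 0.28 in the chamber (adjusted p = 0.0084), -0.24 in experiment 1, -0.94 ± 0.28 in experiment 2 (0.028) and -1.12 ± 0.31 at 100 µM (0.0081), against -0.86, -0.10, -0.57 and -1.12 for the representing set. The third set of Cct3, which matches a sequence family, gave -0.20 ± 0.07 for the hypoxia mean (adjusted p = 0.036) and -0.25 ± 0.13 at 100 µM (0.14). All 3 sets of Cct3 had negative values under hypoxia and at 100 µM, and they differed in size. At 200 µM the second set and the third gave 0.57 ± 0.31 and 0.20 ± 0.13 (adjusted p = 0.15 and 0.25), opposite in sign to the -0.10 of the representing set, and the step between the doses was 1.69 ± 0.31 and 0.45 ± 0.13, against 1.02. On the second set of Cct3 the 200 µM arrays read 7.90 and 9.44, on opposite sides of the controls, both at 8.10. The second set of Cct5 gave -0.27 ± 0.12 in the chamber (adjusted p = 0.12) and -0.34 ± 0.13 at 100 µM (0.0476). In experiment 2, where the representing set of Cct5 was called at -0.39, the second set gave -0.02 ± 0.12 (adjusted p = 0.97), and the mean of both was -0.20 and not called (adjusted p = 0.17). In the hypoxia mean the second set gave -0.11 ± 0.07 (adjusted p = 0.29). At 200 µM it gave -0.17 ± 0.13 (adjusted p = 0.31), against -0.40 for the representing set of Cct5. For the step between the doses it gave 0.17 ± 0.13 (0.47), against 0.47. With the mean of both sets, Cct5 stayed called at 200 µM and for the step.

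The sets of Cct6a and Tcp1 disagreed within the gene. The second set of Cct6a gave 0.43 ± 0.15 at 100 µM (adjusted p = 0.035) and 0.67 ± 0.15 at 200 µM (0.0016), against -0.57 and -0.22 for the representing family set. In the hypoxia mean it gave 0.09 ± 0.08, against -0.17. With CoCl2 the direction of Cct6a therefore depends on the probe set, with opposite calls at 100 µM. With the mean of its sets the difference there was -0.07 (adjusted p = 0.58). Under hypoxia the second probe set of Cct6a was not called in any comparison with controls. It gave 0.02 ± 0.14 in the chamber, 0.28 ± 0.14 in experiment 1 and -0.03 ± 0.14 in experiment 2. The second set of Tcp1 had group means of only 2.93 to 3.67, near the low end of the array, and gave 0.67 ± 0.19 at 100 µM (adjusted p = 0.012) and 0.71 ± 0.19 at 200 µM (0.0066). The representing set of Tcp1 had -0.11 and 0.14 there. Neither gene's disagreement was resolved with the files used here.

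**Figure D4:**
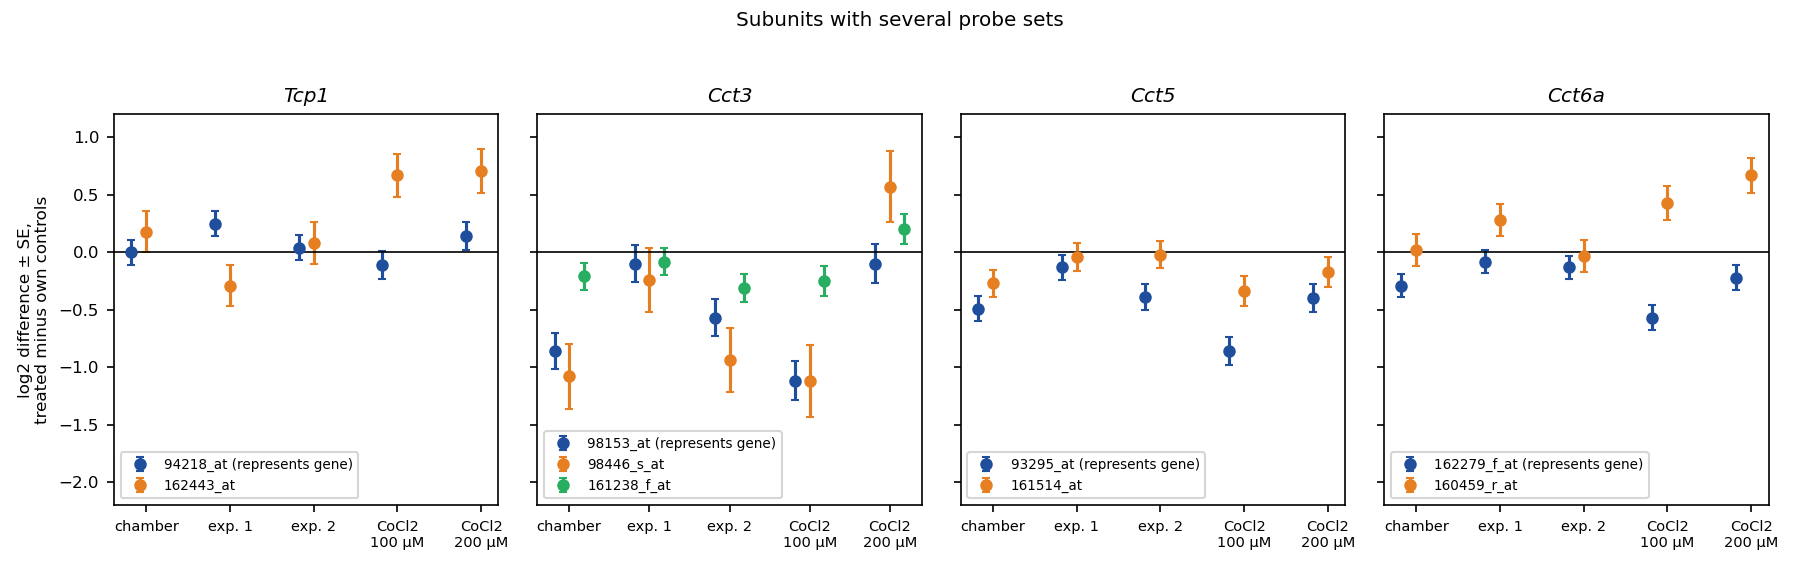
Log2 difference ± SE, treated minus the controls of the same set (vertical axis), in 5 comparisons (horizontal axis) for every probe set of the 4 subunits with several. The sets of Cct3 and Cct5 lie on the same side of 0 under chamber hypoxia and at 100 µM CoCl2. Those of Cct6a lie on opposite sides at 100 µM, at -0.57 and 0.43, as do those of Tcp1, at -0.11 and 0.67.

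Of prefoldin and further TRiC cofactors, 7 of 10 genes were measured. In the hypoxia mean Pdcl3, a phosducin-like TRiC cofactor, rose by 0.41 ± 0.06 (adjusted p = 3.1e-05), the prefoldin subunit gene Pfdn6 fell by 0.31 ± 0.09 (0.011), and 5 did not pass. Of all genes 12.6% were called higher and 19.5% lower there. By set, 3 of the 7 fell and none rose in the chamber, where 15.1% of all genes were called lower. In experiment 1, 2 rose and none fell, where 18.3% of all genes were called in either direction. In experiment 2 only Pdcl3 was called (0.34, adjusted p = 0.04). At 100 µM Pfdn2 (-1.03 ± 0.22, adjusted p = 0.00079) and Pfdn6 (-0.71 ± 0.17, 0.0027) fell, where 20.7% of all genes were called lower. At 200 µM none of the 7 passed (limma, with 1 at an unadjusted p under 0.05), where 19.7% of all genes were called higher and 22.3% lower. The list medians were 0.01 for the hypoxia mean, -0.07 at 100 µM and -0.13 at 200 µM, against 0.01, 0.10 and 0.11 over all genes. Of 4 measured tubulin folding cofactors, which act on tubulin after TRiC, Tbcb fell in the hypoxia mean (-0.32), at 100 µM (-0.56) and at 200 µM (-0.40), and Tbca fell at 100 µM (-1.02 ± 0.18, adjusted p = 0.00012). Cct6b, a testis relative of Cct6a and the only one measured of 5 TRiC-related genes outside the complex, was not called in any of these (0.08, 0.26 and 0.25).

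Transcripts of TRiC clients went both ways. Of 12 measured actin and tubulin genes, 5 rose and 1 fell in the hypoxia mean, beside 12.6% and 19.5% of all genes, led by Tubb2a (0.55 ± 0.10, adjusted p = 9.8e-05), Tubb6 (0.45) and Actg1 (0.41), which encodes cytoplasmic gamma-actin. Tubg1, the gamma-tubulin gene, fell by 0.52 ± 0.06 (adjusted p = 3.8e-07). At 100 µM 1 of the 12 rose and 3 fell, where 17.6% of all genes were called higher and 20.7% lower. The gene that rose was Tuba1a (0.72 ± 0.13, adjusted p = 0.00021). At 200 µM 2 rose and 2 fell, where 19.7% of all genes were called higher and 22.3% lower, and Tubg1 was lower at both doses (-0.67 and -0.36). Of 11 measured other clients, 3 rose and 4 fell in the hypoxia mean, 1 rose and 3 fell at 100 µM, and 3 rose and 4 fell at 200 µM. Stat3 had the largest change of these in the hypoxia mean, a rise of 0.64 ± 0.07 (adjusted p = 1.5e-07). Vhl, the von Hippel-Lindau gene, rose by 0.46 ± 0.09 in the hypoxia mean (adjusted p = 2e-04) and by 0.77 ± 0.16 at 200 µM (0.00063). Cdc20, which activates the anaphase-promoting complex, fell as well, with differences of -0.61 in the hypoxia mean, -2.97 ± 0.14 at 100 µM and -2.83 ± 0.14 at 200 µM. The list medians stayed between -0.12 and 0.13 in all of these comparisons.

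Other chaperones were set beside TRiC. Hspd1 and Hspe1, the chaperonin of the mitochondrion and its lid, fell in the hypoxia mean by 0.57 ± 0.08 and 0.65 ± 0.08 (adjusted p = 1.2e-05 and 6.3e-07), at 100 µM by 1.17 and 1.21 and at 200 µM by 0.73 and 0.50. In the chamber they were at -0.84 and -1.07, and in experiment 1 at -0.38 and -0.34, where neither passed (adjusted p = 0.078 and 0.089). In experiment 2 both fell, at -0.48 and -0.55 (adjusted p = 0.026 and 0.0054). Of the 8 genes measured on that list 4 fell and none rose in the hypoxia mean, beside 19.5% and 12.6% of all genes. Clpp, among the 4, was at -0.59 (adjusted p = 7e-06). At each dose 3 fell and 1 rose, beside 20.7% and 17.6% of all genes at 100 µM and 22.3% and 19.7% at 200 µM. Lonp1, a mitochondrial protease gene, was the one that rose (0.62 at 100 µM and 0.95 at 200 µM). Of 24 measured genes of the cytosolic HSP70, HSP90 and HSP110 system, 3 rose and 11 fell in the hypoxia mean, beside 12.6% and 19.5% of all genes, with Ppid (-1.38) and Hsph1 (-1.11) lowest. At 100 µM 4 of the 24 rose and 12 fell, beside 17.6% and 20.7% of all genes, led by Fkbp4 (-1.87 ± 0.13). At 200 µM 12 of the 24 rose and 8 fell, beside 19.7% and 22.3% of all genes, led by the inducible HSP70 gene Hspa1b (3.61 ± 0.24, adjusted p = 6.7e-11), Hspa8 (1.77) and the co-chaperone gene Bag3 (1.71), while Fkbp4 was at -2.1. Between 200 µM and 100 µM, 12 of the 24 were higher, beside 7.83% of all genes, a comparison in which the Actb value moved as well. The list medians were -0.09 (hypoxia mean), -0.44 (100 µM) and 0.26 (200 µM).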

How the data were processed

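RNA of B16-F10 cells was hybridised to 21 Affymetrix U74Av2 arrays. The deposited values are log2 values per probe set, made by the authors with GCOS 1.2 and RMA, per the submitters' processing notes; the version of RMA and whether all arrays shared 1 run were not given in the sources used here. Values ran from 1.37 to 13.3 with array medians of 5.44 to 5.53, and were used without further scaling. RMA compresses small differences of dim probe sets, and no detection call was used.

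Of 12488 probe sets, 10833 had 1 gene symbol, and the set with the highest mean represented each of 8251 genes. A model with 1 mean for each of 9 groups was fitted with limma 3.58.1 (R 4.3.3) to the 21 arrays, which left 12 residual degrees of freedom, or 20.9 with moderation. Tests were two-sided, adjusted over all genes by Benjamini-Hochberg and called at 0.05, and errors are standard errors of the model. The number of arrays limits the precision. The fit was tested on simulated data.

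The subunits and the lists were chosen with earlier results of these data known. All 8 subunits were named. From each list, names were drawn from up to 4 called genes with the largest changes in the hypoxia mean and at each CoCl2 dose. Not all of these are named in the text, and Vegfa and Cct6b were named apart from this rule. By Pearson r over the 13 treated arrays, the 8 genes most and 4 least like the subunits' mean were also named, among genes with a standard deviation of at least 0.2. Hspd1 and Hspe1 were also given by set. Replicate numbers were not taken as pairs, since arrays that share a number had residual correlations from -0.37 to 0.235. Alternatives were array centring, quantile normalisation, genes under the 40th percentile left out, every probe set tested, the mean of a gene's probe sets, a trended variance, array weights, a replicate block, the Actb covariate, only the sets compared, and each array left out.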

Additional observations from a re-analysis of the deposited data

Results flagged for a closer look

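These are the differences between effects, or between doses, that passed the test as described in the text. Between 200 µM and 100 µM CoCl2 the step was 1.02 for Cct3, 0.98 for Cct8, 0.89 for Cct7, 0.47 for Cct5 and 0.35 for Cct6a (log2, 200 µM minus 100 µM), with the Actb 3′ minus 5′ value at 1.47 and 0.50 on the 200 µM arrays and 2.36 and 2.16 on the 100 µM arrays. None of these 5 steps was called with the Actb value as a covariate (adjusted p between 0.25 and 0.66) or with the arrays of experiment 3 alone. The chamber effect minus the experiment 1 effect was -0.68 for Cct4 and -0.70 for Cct8, a comparison added after the values were seen, and both calls were lost with quantile normalisation, with all probe sets tested, with the replicate block and in 7 of the 10 fits with 1 array left out. The CoCl2 effect minus the hypoxia effect was -0.73 for Cct4 and -0.58 for Cct8. No group held enough arrays for a check of single arrays against their group.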

How the results depend on the processing

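Of 1816 recomputed differences of single subunits, 1688 kept their side of the threshold, 98 lost the call, 30 gained one and 0 of the called ones turned sign. Differences that were not called could change sign, as that of Cct7 at 200 µM did (-0.27 to 0.24). Among the 6 subunits called in the chamber, quantile normalisation left 3 and the replicate block 3, and leaving out 1 array left 2 to 5. Array weights called 2 in experiment 1 (Tcp1 and Cct2, both higher), against 0, and leaving out 1 array called 0 to 1. In experiment 2, where Cct3 and Cct5 were called, the mean of a gene's probe sets and the replicate block each called 1 (Cct3), and leaving out 1 array called 1 to 2, the 1 being Cct3, or Cct2 alone without control 2. The hypoxia mean called 3 to 5 with 1 array left out, and CoCl2 at 100 µM called 6 each time. With the mean of a gene's probe sets, CoCl2 at 100 µM called 5 of these 6, without Cct6a. At 200 µM the arrays of experiment 3 alone called 1 of 2, and leaving out 1 array called 1 to 3. Of the 5 steps between the doses, array weights and the replicate block each left 3, the Actb covariate and the arrays of experiment 3 alone each left 0, and leaving out 1 array left 4 to 5. For the chamber against both incubator experiments, where 0 were called, median centring, the filter on low genes, the variance trend and the Actb covariate each called 1 (Cct4), array weights and only the sets compared each called 3 (Cct3, Cct4 and Cct8), and leaving out 1 array called 0 to 1. For the chamber against experiment 1, quantile normalisation, all probe sets and the replicate block each called 0 of 2, array weights called 4, and leaving out 1 array called 0 to 2. For the chamber against experiment 2, array weights and only the sets compared each called 1 (Cct4), against 0. For CoCl2 against hypoxia, leaving out 1 array called 1 to 3, and only the sets compared could not be applied, since it uses all of them. The replicate block changed no other count of calls by over 1.5 times. The cause of these changes was not tested.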
